A study of Mus musculus with 8 samples.

Results

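The genes described are 10 subunits of the NuRD complex, a chromatin remodelling and histone deacetylase complex that Ikaros binds: Chd3, Chd4, Hdac1, Hdac2, Mta1, Mta2, Mta3, Mbd2, Mbd3 and Rbbp4. They were chosen by name, as the probe sets whose platform annotation gives exactly 1 of these symbols, which took 21 of 34945 probe sets with 1 symbol and 10 of 18193 genes. The probe set with the highest mean over the 8 arrays stood for its gene. RNA came from the mouse thymic lymphoma line T29, which the series text calls Ikaros-deficient, so that every group shares this background. The groups were cells transduced with MigR1-Ik1ER, a retrovirus that carries an inducible form of Ikaros, treated with 100 nM 4-hydroxytamoxifen (4OHT) for 24 h, the same cells in its solvent ethanol, cells transduced with the empty vector MigR1 in 4OHT, and MigR1 cells in ethanol. Each group had 2 Affymetrix arrays, 8 in all, a small number that sets the precision. Whether the arrays within a group represent independent cultures, and whether a transduced line was 1 clone, is not stated in the labels, and the p-values therefore cover array-to-array spread that can be technical.

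NuRD joins ATP-driven nucleosome remodelling with histone deacetylation. CHD3 and CHD4 are its alternative remodelling ATPases, HDAC1 and HDAC2 its deacetylases, and the MTA proteins form the scaffold that holds the deacetylases and the histone-binding protein RBBP4. MBD2 and MBD3 occupy the same place in alternative complexes, and MBD2 binds methylated DNA. In thymocytes a large share of Ikaros protein is found with CHD4-containing NuRD, and the complex takes part in both silencing and activation of T lineage genes.

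The labels were checked on Ikzf1, the gene of Ikaros. One of its 2 probe sets read 11.27 and 10.45 in Ik1ER cells in 4OHT and 11.17 and 10.60 in Ik1ER cells in ethanol, against 8.16 and 8.51 in MigR1 cells in 4OHT and 8.12 and 8.14 in MigR1 cells in ethanol (log2 values). All 4 Ik1ER arrays thus lay above all 4 MigR1 arrays. Its other probe set did not separate the lines, with 9.97 to 10.44 in Ik1ER cells and 10.20 to 10.36 in MigR1 cells. In Ik1ER cells, both arrays numbered 2 were unlike the rest in a control of RNA quality, the excess of the 3' over the 5' probe set of the transferrin receptor. It was 1.91 (log2) in 4OHT and 1.66 in ethanol on these arrays, against 1.16 to 1.39 on the other 6. The hybridization controls read 8.86 on Ik1ER 4OHT replicate 2, against 9.41 to 9.54 on the other 7, and 18S rRNA read 10.07 on Ik1ER ethanol replicate 2, against 8.54 to 9.18 on the other 7. All 9 measured T lineage markers had means above 5.27, the highest mean of a Bacillus control probe set, which serves as a gauge of background. So did 1 of 4 B cell, 3 of 6 myeloid, 1 of 5 stromal and 1 of 3 erythroid markers. Between 4OHT and ethanol in Ik1ER cells, the T lineage markers Cd8a and Cd4 were called higher and Cd3d, Cd3e, Cd3g and Ptcra lower, and of the myeloid markers Itgam was called higher and Lyz2 and Cd14 lower. The summed linear signal of the 9 T lineage markers was 33273 to 36455 in Ik1ER cells in 4OHT, against 38282 to 39425 in Ik1ER cells in ethanol, and that of the 6 myeloid markers was 232 to 242, against 306 to 324. The sum of the 5 stromal markers was 468 to 469, against 741 to 861, with 499 to 843 on the MigR1 arrays, and no stromal marker was called. The B cell sum was 129 to 130, against 120 to 127, and the erythroid sum 88 to 89, against 87 to 93. The part of these shifts in the differences given here was not tested. As the RNA came from a whole culture, fewer cells that express a gene and less RNA per cell cannot be told apart.

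The main comparison, 4OHT against ethanol in Ik1ER cells, asks whether induced Ikaros activity alters the transcripts of its partner complex. None of the 10 NuRD genes passed the test (limma, adjusted p from 0.153 to 0.986), against 5.34% of all genes (2.80% higher and 2.53% lower). At such a share 0 of 10 members is near the background. The largest differences were those of the remodeller gene Chd3 and the scaffold gene Mta3, near 0.41 on the log2 scale or 1.33-fold each. Of the others, Chd4 differed by 0.15 and Mta1 by -0.10, and the remaining 6 lay between -0.04 and 0.06. At an unadjusted p under 0.05, 2 of the 10 members would pass, against 17.8% of all genes. The median over the members was 0.03, against -0.0044 over all genes, and the median size of a difference regardless of sign was 0.05, against 0.10. The members are bright, with means of 9.24 to 13.19, and bright genes varied less. The median SD within groups was 0.065 for genes with means of 9 to 13, against 0.098 for all genes. The sizes were not compared with those of equally bright genes. Both 4OHT arrays lay above both ethanol arrays for 4 members (Chd3, Hdac1, Mta3 and Rbbp4), where 21.0% of all genes did the same, and below for 0, where 21.7% of all genes did. In either direction the share of all genes without overlap was 42.7%, so that 4 of 10 members is near the background. The 971 calls behind the share of 5.34% were 447 without Ik1ER ethanol replicate 1 and 441 without Ik1ER ethanol replicate 2.

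**Figure D1:**
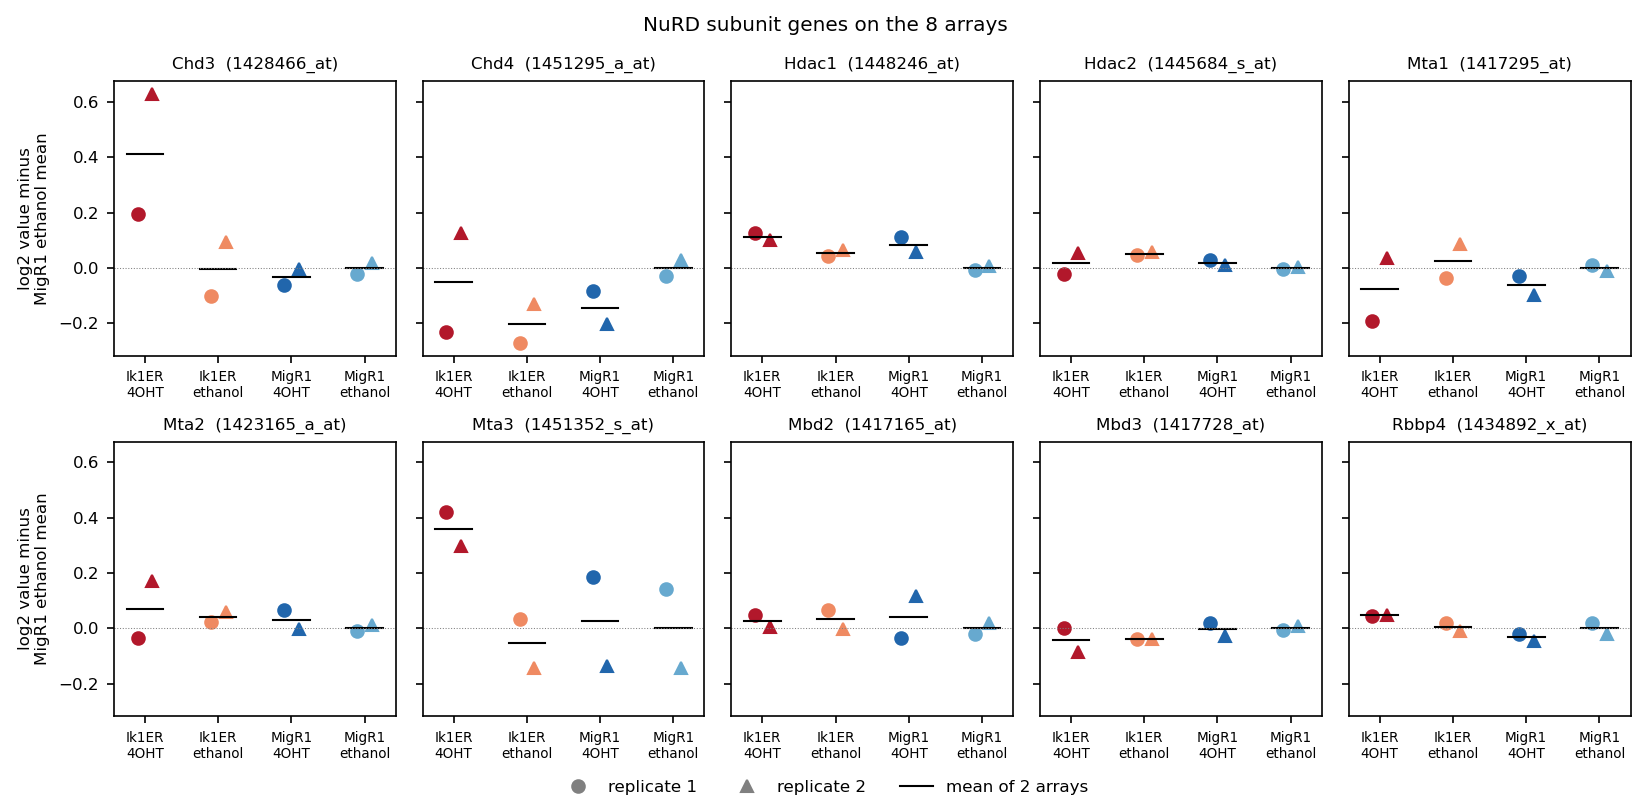
Log2 value of the probe set that stands for each NuRD gene on every array, minus the mean of the MigR1 ethanol arrays, with 1 panel a gene and the same scale throughout. Circles are replicate 1, triangles replicate 2 and lines the mean of 2 arrays. Chd3 and Mta3 are the panels with the highest Ik1ER 4OHT means, while the values of Hdac1, Hdac2, Mbd3 and Rbbp4 span 0.08 to 0.13 over the 8 arrays.

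Of the remodelling ATPases, Chd3 had 9.34 and 9.77 in Ik1ER cells in 4OHT, against 9.04 and 9.24 in Ik1ER cells in ethanol (log2 values). It had 9.08 and 9.14 in MigR1 cells in 4OHT and 9.12 and 9.16 in MigR1 cells in ethanol. Both induced arrays were thus above the other 6, but they differed from each other by more than the lower one did from the ethanol arrays. The difference in Ik1ER cells was 0.41 (SE 0.14, 95% interval 0.10 to 0.73, limma adjusted p = 0.153). The array with the highest Chd3 value was also the one with the largest 3' excess of the transferrin receptor (1.91), and in ethanol too the Ik1ER array with the larger excess (1.66) read higher. With that excess as a covariate the difference was 0.36 (adjusted p = 0.0330), without Ik1ER 4OHT replicate 1 it was 0.63 (adjusted p = 0.0270), without Ik1ER 4OHT replicate 2 it was 0.20 (adjusted p = 0.379) and without both replicate 2 arrays it was 0.30 (adjusted p = 0.203). The part of RNA quality in the Chd3 values was not tested. Chd3 was measured by 1 probe set.

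Chd4, the ATPase gene whose product is found with Ikaros in T cells, had 9.66 and 10.02 in Ik1ER cells in 4OHT, against 9.62 and 9.76 in Ik1ER cells in ethanol. It had 9.81 and 9.69 in MigR1 cells in 4OHT, against 9.86 and 9.92 in MigR1 cells in ethanol. The groups of the Ik1ER line overlapped, and the highest of the 8 values was again that of Ik1ER 4OHT replicate 2. The difference in Ik1ER cells was 0.15 (SE 0.12, 95% interval -0.13 to 0.43, limma adjusted p = 0.613), and -0.03 without that array. The other probe sets of Chd4, with means of 6.98 and 6.24, differed by 0.21 and 0.10, with adjusted p = 0.677 and 0.693 (limma over 45037 probe sets).

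Of the scaffold genes, Mta3 had 9.70 and 9.57 in Ik1ER cells in 4OHT, against 9.31 and 9.13 in Ik1ER cells in ethanol (brightest probe set). It had 9.46 and 9.14 in MigR1 cells in 4OHT, against 9.42 and 9.13 in MigR1 cells in ethanol. Both induced arrays lay above the other 6, and in all 4 groups the array labelled replicate 1 read above the one labelled replicate 2. The difference in Ik1ER cells was 0.41 (SE 0.14, 95% interval 0.10 to 0.73, limma adjusted p = 0.154), with a range of 0.32 to 0.50 when each array was left out in turn. Mta3 was called under 1 of 19 alternatives, the fit with the replicate number as a term, which is given with the processing below. The MTA3 protein is known as the partner through which the repressor BCL6 draws NuRD to its targets in germinal centre B cells.

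Unlike Chd3, Mta3 had further probe sets. The second brightest had 8.59 and 8.53 in Ik1ER cells in 4OHT, against 8.31 and 7.71 in Ik1ER cells in ethanol. It had 8.28 and 7.81 in MigR1 cells in 4OHT and 8.34 and 8.05 in MigR1 cells in ethanol. Here too the induced arrays were above the other 6, and the difference was 0.56 (SE 0.22, 95% interval 0.05 to 1.06, limma adjusted p = 0.317 over 45037 probe sets). The third and dimmest one, with a mean of 6.09, differed by 0.03 (adjusted p = 0.927). Unlike Chd3, Mta3 was not highest on the array with the largest transferrin receptor 3' excess. The array with the next largest excess, Ik1ER ethanol replicate 2 (1.66), read 9.13 on the brightest probe set, level with MigR1 ethanol replicate 2. On the second brightest it read 7.71, the lowest of the 8. The difference of the brightest was 0.39 without both replicate 2 arrays of Ik1ER. The part of RNA quality in the Mta3 values was not tested.

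The other MTA genes encode the alternative scaffolds. Mta2 had 11.12 and 11.32 in Ik1ER cells in 4OHT, against 11.18 and 11.21 in Ik1ER cells in ethanol, and both MigR1 groups lay between 11.14 and 11.22. The difference was 0.03 (95% interval -0.17 to 0.22, limma adjusted p = 0.928), and the 2 induced arrays were the lowest and the highest of the 8. Mta1 had 9.68 and 9.90 in Ik1ER cells in 4OHT, against 9.83 and 9.95 in Ik1ER cells in ethanol, and MigR1 arrays read 9.77 to 9.88. The difference was -0.10 (95% interval -0.32 to 0.12, limma adjusted p = 0.672), and the groups overlapped. A dim probe set of Mta1, with a mean of 4.49 below the highest Bacillus control mean, differed by -0.19 (adjusted p = 0.519).

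**Figure D2:**
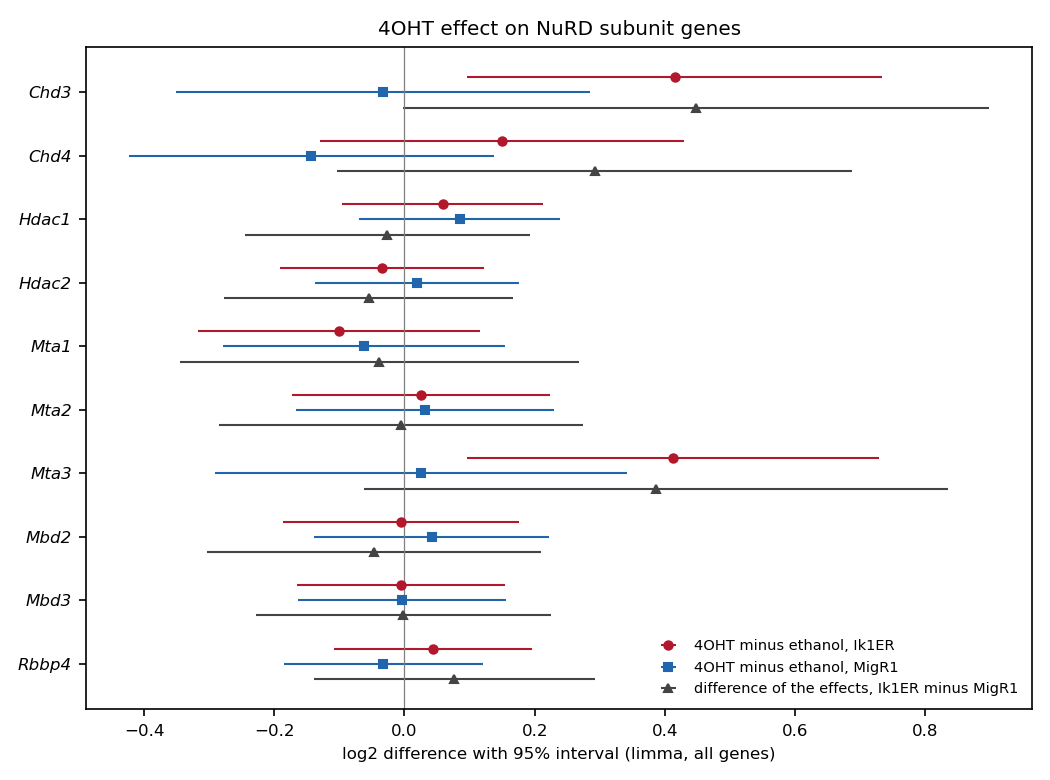
Log2 difference of the 10 NuRD genes with 95% interval from the limma fit to 8 arrays, for 4OHT minus ethanol in Ik1ER cells (circles), the same in MigR1 cells (squares) and the difference between these effects (triangles). The Ik1ER intervals of Chd3 and Mta3 begin at 0.10, and those of the difference between lines reach 0 for every gene.

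The deacetylase genes had little spread. Hdac1 had 11.99 and 11.96 in Ik1ER cells in 4OHT, against 11.91 and 11.93 in Ik1ER cells in ethanol, and 11.98 and 11.92 in MigR1 cells in 4OHT, against 11.86 and 11.87 in MigR1 cells in ethanol. In each line both 4OHT arrays thus lay above both ethanol arrays, by 0.06 in Ik1ER cells (SE 0.07, limma adjusted p = 0.743) and 0.08 in MigR1 cells (SE 0.07, limma adjusted p = 1.00). Hdac2 had 12.29 and 12.36 in Ik1ER cells in 4OHT, against 12.35 and 12.36 in Ik1ER cells in ethanol, with 12.30 to 12.34 on the MigR1 arrays. Its difference in Ik1ER cells was -0.04 (95% interval -0.19 to 0.12, limma adjusted p = 0.865). A less bright probe set of Hdac2 had 10.85 and 10.96 in Ik1ER cells in 4OHT, against 10.99 and 11.05 in Ik1ER cells in ethanol, a difference of -0.11 (adjusted p = 0.694). The dimmest one, with a mean of 6.65, spanned 0.84 over the 8 arrays and differed by 0.11 (SE 0.26, adjusted p = 0.917).

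Of the genes of the methyl-CpG binding domain subunits, Mbd3 had 9.93 and 9.84 in Ik1ER cells in 4OHT, against 9.89 and 9.89 in Ik1ER cells in ethanol, and MigR1 arrays read 9.90 to 9.95. The difference was -0.01 (95% interval -0.17 to 0.15, limma adjusted p = 0.983). Mbd2 had 10.43 and 10.39 in Ik1ER cells in 4OHT, against 10.45 and 10.38 in Ik1ER cells in ethanol, and MigR1 arrays read 10.35 to 10.50. Its difference was -0.01 (95% interval -0.18 to 0.18, limma adjusted p = 0.986), and its other probe set, which read 9.30 to 9.72 over the 8 arrays with the lowest on Ik1ER 4OHT replicate 2, differed by -0.13 (adjusted p = 0.773).

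Rbbp4, whose product binds histone H4 and also serves in Polycomb repressive complex 2, was read by 4 probe sets that differed in behaviour. The brightest one had 13.24 and 13.24 in Ik1ER cells in 4OHT, against 13.21 and 13.18 in Ik1ER cells in ethanol, and the MigR1 arrays read 13.15 to 13.21. The difference was 0.04 (95% interval -0.11 to 0.20, limma adjusted p = 0.817). By its suffix (_x_at) this probe set may also bind other transcripts. The second brightest had 12.11 and 11.57 in Ik1ER cells in 4OHT, against 11.98 and 11.65 in Ik1ER cells in ethanol, while the 4 MigR1 arrays read 12.00 to 12.07.

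Its 2 low values were those of the 2 replicate 2 arrays of Ik1ER, which also had the largest transferrin receptor 3' excess. On the same arrays the third brightest read 11.40 in 4OHT and 11.53 in ethanol, against 11.56 to 11.89 on the other 6. The part of RNA quality in these values was not tested. The differences between 4OHT and ethanol in Ik1ER cells were 0.03 for both of these probe sets (adjusted p = 0.975 and 0.970), and that of the dimmest one, with a mean of 6.97, was 0.32 (SE 0.27, adjusted p = 0.703).

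**Figure D3:**
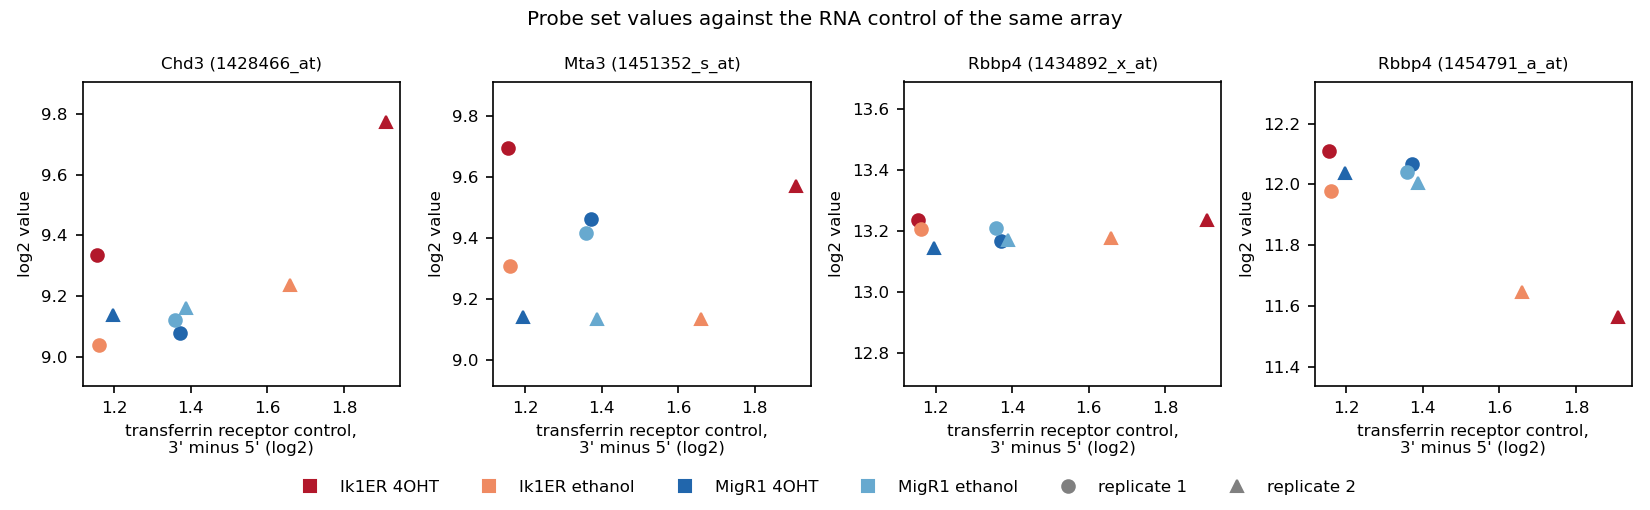
Log2 values of Chd3, Mta3 and the 2 brightest probe sets of Rbbp4 on each array against the 3' minus 5' difference of the transferrin receptor control (log2) on the same array, with colours for groups and shapes for replicates, and a vertical range of equal width in all panels. The Ik1ER replicate 2 arrays lie at 1.66 and 1.91 on the horizontal axis, where Chd3 is highest at 1.91 and the second brightest Rbbp4 probe set is low at both.

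On the probe sets that stand for them, for 6 of the members, Hdac1, Hdac2, Mta2, Mbd2, Mbd3 and Rbbp4, the 95% intervals of the difference in Ik1ER cells lay between -0.19 and 0.22, or 1.14-fold lower to 1.17-fold higher. With Chd4 and Mta1 added they lay between -0.32 and 0.43. Some other probe sets of these genes had wider intervals, such as -0.38 to 0.44 for the second brightest of Rbbp4 and -0.45 to 0.19 for the other one of Mbd2. The widest were -0.30 to 0.95 for the dimmest of Rbbp4 and -0.48 to 0.71 for the dimmest of Hdac2. None of the 21 probe sets passed the test over 45037 probe sets (limma, lowest adjusted p = 0.242), against 2.50% of all probe sets. At an unadjusted p under 0.05 there were 3, against 13.2% of all probe sets, those of Chd3 and the brighter 2 of Mta3.

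**Figure D4:**
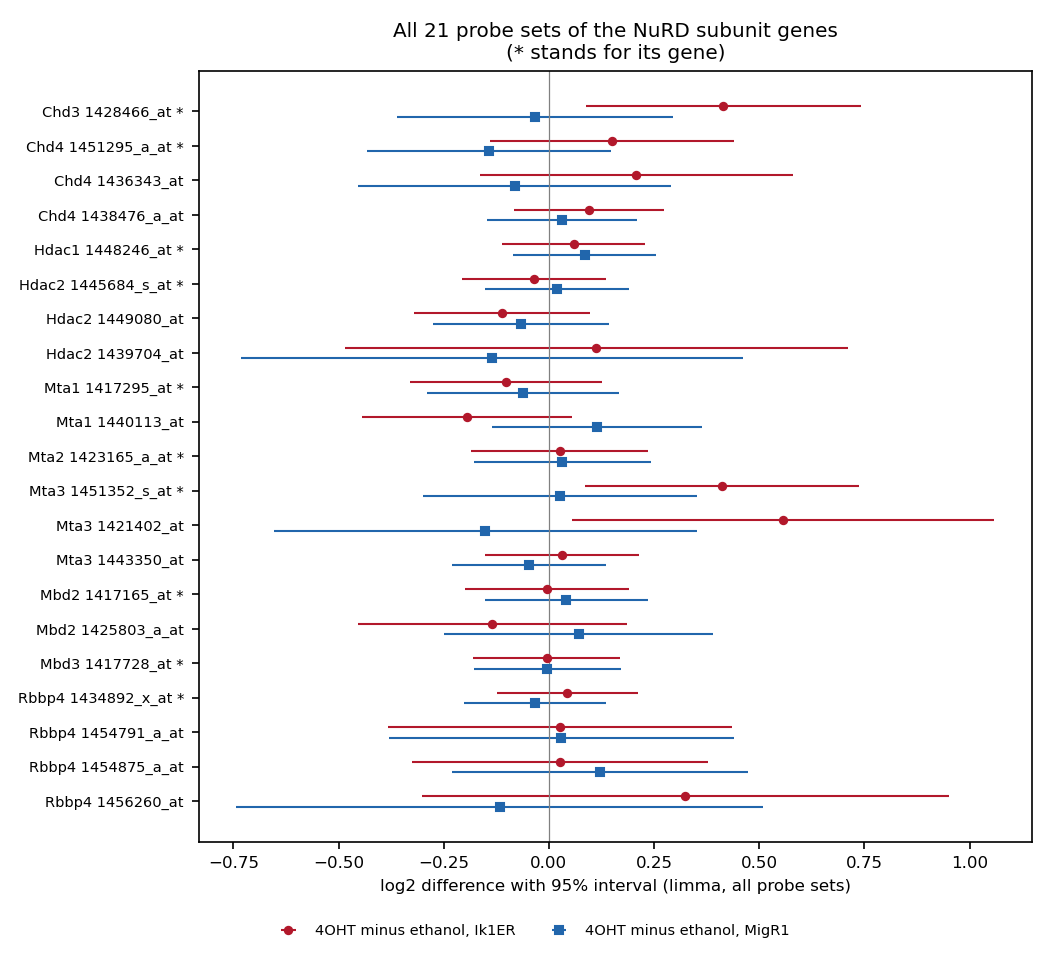
Log2 difference with 95% interval for each of the 21 probe sets of the NuRD genes, 4OHT minus ethanol, in Ik1ER cells (circles) and MigR1 cells (squares), from the limma fit over 45037 probe sets. The Ik1ER intervals of Chd3 and of 2 Mta3 probe sets lie above 0, and those of the other 18 include 0.

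The same treatment in MigR1 cells gives the effect of 4OHT without the inducible protein. No member passed the test (limma, adjusted p = 1.00 for each), at a background of 0.00% of all genes. None of the 10 had an unadjusted p under 0.05, against 2.12% of all genes. The differences lay between -0.14 (Chd4) and 0.08 (Hdac1), with a median of 0.01. Their median size was 0.03, against 0.05 over all genes, dim ones included. Chd3 differed by -0.03 (SE 0.14) and Mta3 by 0.03 (SE 0.14). Both 4OHT arrays lay above both ethanol arrays for 2 members, as for 16.5% of all genes, and below for 3, as for 13.2% of all genes (29.7% in either direction).

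The difference between the 4OHT effects of the lines was tested as an interaction, which 1.26% of all genes passed (0.616% higher and 0.649% lower) and 0 of the 10 members (limma, adjusted p from 0.449 to 0.997, with 0 members at an unadjusted p under 0.05 against 11.2% of all genes). For Chd3 it was 0.45 (95% interval -0.0025 to 0.90, adjusted p = 0.449) and for Mta3 0.39 (95% interval -0.06 to 0.83, adjusted p = 0.536). For Chd4, which differed by 0.15 in Ik1ER cells and -0.14 in MigR1 cells, it was 0.29 (95% interval -0.10 to 0.69, adjusted p = 0.611). With 1 array left out Chd3 ranged from 0.23 (without Ik1ER 4OHT replicate 2) to 0.67 (without Ik1ER 4OHT replicate 1) and Chd4 from 0.11 to 0.47 (without the same arrays). None of these passed. Mta3 was 0.23 without MigR1 4OHT replicate 2 and 0.24 without MigR1 ethanol replicate 1, and at most 0.55. An effect confined to the Ik1ER line was therefore not shown for these 3 genes. The share of 1.26% rests on 230 calls, which fell in number to 52 without MigR1 4OHT replicate 2, to 63 to 110 without any of MigR1 4OHT replicate 1, MigR1 ethanol replicate 1, MigR1 ethanol replicate 2, Ik1ER ethanol replicate 1 and Ik1ER ethanol replicate 2. Without Ik1ER 4OHT replicate 1 or 2 the count stayed within 1.5 times of 230.

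Ik1ER cells were also set against MigR1 cells. In 4OHT no member passed the test (limma, adjusted p from 0.130 to 0.989), against 5.08% of all genes (2.91% higher and 2.17% lower), and 2 of 10 had an unadjusted p under 0.05, against 17.8% of all genes. Chd3 differed by 0.44 (SE 0.14, adjusted p = 0.130), by 0.66 without Ik1ER 4OHT replicate 1 (adjusted p = 0.0238) and by 0.23 without Ik1ER 4OHT replicate 2 (adjusted p = 0.338). Mta3 differed by 0.33 (SE 0.14, adjusted p = 0.255), and by 0.17 without MigR1 4OHT replicate 2 (adjusted p = 0.731). All Ik1ER arrays lay above all MigR1 arrays for 3 members, as for 22.2% of all genes, and below for 0, against 22.6% (44.8% in either direction). This comparison and the main one share the Ik1ER 4OHT arrays, so that the Chd3 values of the 2 are not independent. For all genes, the share of 5.08% rests on 925 calls, which were 295 without MigR1 4OHT replicate 1 and 237 without MigR1 4OHT replicate 2.

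In ethanol no member passed either (limma, adjusted p from 0.928 to 0.999, 0 with an unadjusted p under 0.05 against 5.32% of all genes), at a background of 0.00%. The lowest difference was that of Chd4, -0.20 (SE 0.12, adjusted p = 0.928), with both Ik1ER arrays below both MigR1 arrays, as for 16.8% of all genes. This held for 2 members, and 3 had both Ik1ER arrays above both MigR1 arrays, as for 20.7% of all genes (37.6% in either direction). Over both treatments, with 4 arrays a line, no member passed (limma, adjusted p from 0.337 to 0.981), against 1.77% of all genes (1.11% higher and 0.660% lower), and 0 had an unadjusted p under 0.05, against 15.3%. The differences were between -0.05 and 0.22, the highest that of Chd3 (SE 0.10). It was 0.11 without Ik1ER 4OHT replicate 2, 0.33 without Ik1ER 4OHT replicate 1 and 0.06 without both replicate 2 arrays of Ik1ER. In no member did the 4 Ik1ER arrays all lie on 1 side of the 4 MigR1 arrays, a separation that 6.55% of all genes showed (3.56% above and 2.98% below). The 322 calls behind the share of 1.77% were 33 to 171 without any 1 of the MigR1 arrays or Ik1ER ethanol arrays.

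The rest of the NuRD complex and related corepressors were read from 9 lists, with 66 of 70 genes measured. In Ik1ER cells 1 of the 66 was called higher in 4OHT and 2 lower, or 4.55% against the 5.34% of all genes. The other NuRD subunit genes had no call among 5. Their smallest p was that of Cdk2ap1, whose product is a small NuRD subunit, with 13.07 ± 0.04 in Ik1ER cells in 4OHT and 13.25 ± 0.01 in Ik1ER cells in ethanol (SD, n = 2), a difference of -0.18 (limma adjusted p = 0.200, and 0.00764 with a trend and robust moderation of the spread). The list had a median of 0.03, as the members did.

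Among 9 transcription factors known to bind NuRD, Ikzf3, the gene of the Ikaros relative Aiolos, rose and none fell. It had 9.36 and 9.34 in Ik1ER cells in 4OHT, against 8.93 and 8.92 in Ik1ER cells in ethanol and 8.90 to 8.96 on the MigR1 arrays, a difference of 0.43 (SE 0.07, limma adjusted p = 0.0108). It no longer passed with either Ik1ER ethanol array left out (0.43 with adjusted p = 0.0610 without replicate 1, 0.42 with 0.0706 without replicate 2) and without both replicate 2 arrays of Ik1ER (0.43 with 0.0916). In 4OHT, Ik1ER cells read higher than MigR1 cells by 0.42 (limma adjusted p = 0.0119), a call lost under 5 of 19 alternatives. The interaction was 0.41 (adjusted p = 0.102). Another probe set of Ikzf3, with a mean of 7.46, differed by 0.48 (limma adjusted p = 0.181 over 45037 probe sets). A dim one, with a mean of 3.51 below the highest Bacillus control mean, differed by -0.20. With the mean of all its probe sets taken, the dim one included, the difference was 0.24 (limma adjusted p = 0.267). The median of this list was 0.18, with 8 of 9 above 0.

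Among 9 other histone deacetylase genes, Hdac6 fell and none rose. HDAC6 is a mostly cytoplasmic enzyme that deacetylates tubulin and is no NuRD subunit. It had 8.65 and 8.65 in Ik1ER cells in 4OHT, against 9.23 and 9.12 in Ik1ER cells in ethanol, and the MigR1 arrays read 9.16 to 9.32. The induced arrays were the lowest of the 8, and the difference was -0.53 (SE 0.08, limma adjusted p = 0.0103). It no longer passed when replicate 1 of Ik1ER ethanol was left out (-0.47, adjusted p = 0.0705) or without both replicate 2 arrays of Ik1ER (-0.58, 0.0750). In 4OHT, Ik1ER cells read lower than MigR1 cells, with a difference of -0.66 (limma adjusted p = 0.00448), while the interaction was -0.60 (adjusted p = 0.0609). Over both treatments the difference between lines was -0.37 (limma adjusted p = 0.0260), a call lost under 10 of 18 alternatives. Of the 66 listed genes, 2 (3.03%) were called between lines in 4OHT, against 5.08% of all genes. Over both treatments 1 was called (1.52%), against 1.77% of all genes.

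In the SIN3 complex, the other large complex built on HDAC1 and HDAC2, 1 of 12 measured genes fell and none rose. Sap30, which encodes a subunit that bridges SIN3 and the deacetylases, had 10.96 and 11.07 in Ik1ER cells in 4OHT, against 11.38 and 11.48 in Ik1ER cells in ethanol and 11.33 to 11.51 on the MigR1 arrays. The difference was -0.42 (SE 0.09, limma adjusted p = 0.0295). Its call was lost without Ik1ER 4OHT replicate 1 (adjusted p = 0.108), Ik1ER ethanol replicate 1 (0.0837), Ik1ER ethanol replicate 2 (0.165) or either MigR1 4OHT array (0.0563 each), without both replicate 2 arrays of Ik1ER (0.147), or when adjusted over all probe sets (0.0628), with differences of -0.47 to -0.36 throughout. The interaction was -0.35 (adjusted p = 0.297). With the 4 Ik1ER arrays fitted alone none of the 3 genes passed (adjusted p = 0.0745 for Ikzf3, 0.0507 for Hdac6 and 0.108 for Sap30).

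The other 5 lists held no call in this comparison. Of 14 SWI/SNF genes, which encode another remodelling complex found with Ikaros, the smallest p was that of the ATPase gene Smarca4, with 11.18 ± 0.15 in Ik1ER cells in 4OHT and 10.89 ± 0.06 in Ik1ER cells in ethanol (SD, n = 2), a difference of 0.29 (limma adjusted p = 0.118). It passed with a trend and robust moderation of the spread (adjusted p = 0.0321) and with the transferrin receptor difference as a covariate (0.0479). The CoREST gene Rcor3 differed by -0.32 (adjusted p = 0.121, and 0.0296 with the covariate) and the corepressor gene Ctbp2 by -0.33 (adjusted p = 0.223). The remodeller gene Chd9 differed by 0.26 (adjusted p = 0.286) and the DNA glycosylase gene Mbd4 by 0.30 (adjusted p = 0.0909). Mbd4 passed with dim genes left out (0.0497), with a trend and robust moderation (0.0442) and with the covariate (0.0466).

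**Figure D5:**
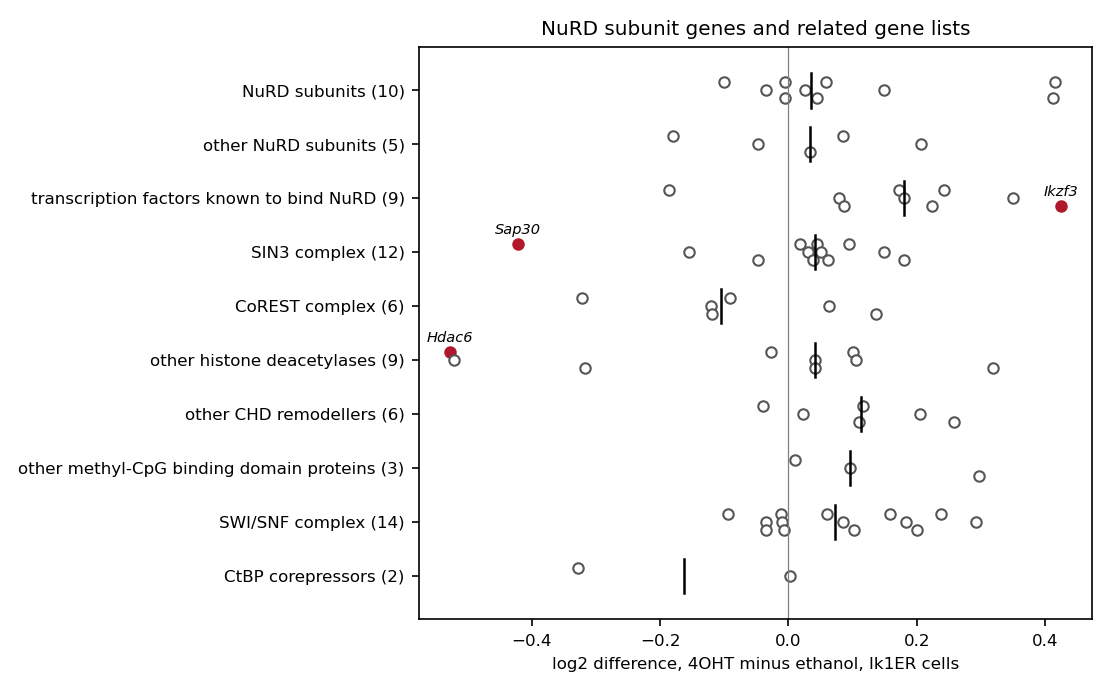
Log2 difference, 4OHT minus ethanol, in Ik1ER cells for each measured gene of the NuRD subunits and of 9 related lists, with the number of measured genes in parentheses. Filled points passed the test over all genes, open points did not, and vertical bars are medians: Ikzf3, Hdac6 and Sap30 passed, and none of the 10 NuRD subunits did.

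The genes with a profile most like that of Chd3, the member of smallest p, were Frat2, Prickle1 and 1700019D03Rik, with Pearson r of 0.99 each over the 8 arrays, the highest among 18192 other genes. All 3 read highest on Ik1ER 4OHT replicate 2, the array on which Chd3 was highest. Their differences in Ik1ER cells were 0.46, 0.40 and 0.42, and none of them passed the test (limma, adjusted p = 0.114, 0.153 and 0.120).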

How the data were processed

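The deposited table holds log2 expression values of 45037 probe sets and 64 control probe sets on 8 arrays, made with RMA by the authors per the submitters' processing notes. The sources used here give no RMA version, probe set definition or genome build, so no positions are printed. RMA sets arrays to a common distribution and hides a global shift of RNA content. Genes came from the platform annotation: 34945 probe sets have 1 symbol, 932 several and 9160 are not listed with one. All 10 members matched a RefSeq gene table by identifier.

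A model of the 4 group means over the 8 arrays was fitted by limma 3.58.1 (lmFit, eBayes) in R 4.3.3 for 18193 genes and 6 contrasts, with 4 residual degrees of freedom. P-values were adjusted by Benjamini and Hochberg within each contrast, with calls at an adjusted p under 0.05. Errors beside differences are standard errors of the eBayes fit, with the spread pooled over groups and drawn toward that of all genes. Intervals use the total degrees of freedom after this step, 7.90 in the fit over genes. With 2 arrays against 2, the SE without this step would equal the pooled SD within groups. That SD was 0.02 for Hdac1 and 0.17 for Chd3, against an SE of 0.07 and 0.14 in the main comparison. The fit was run on simulated arrays with independent values and changes larger than any member difference given here. That run therefore does not show what the fit can find at the sizes seen for the members. Members and lists were chosen with earlier results of these data known. By rule the text names all members, the called genes of each list or else that of smallest p, and the 3 genes most like 1 member. Alternatives were the replicate number as a term, a filter on dim genes, moderation with trend and robust settings, repeated quantile normalization, median centring, other rules for the probe set, the arrays of the compared groups alone, the transferrin receptor covariate and leaving out arrays.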

Additional observations from a re-analysis of the deposited data

How the results depend on the processing

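The count of 0 members called held under 16 of 19 alternatives in the main comparison (4OHT against ethanol in Ik1ER cells), under 18 of 19 for Ik1ER against MigR1 cells in 4OHT, and under every alternative run for the other 4 comparisons. In the main comparison 1 member was called with the replicate number as a block (Mta3, 0.41, adjusted p = 0.0281) and 1 with the transferrin receptor covariate (Chd3), and leaving out 1 array gave 0 to 1, likewise 0 to 1 in 4OHT between lines. In the main fit the replicate numbers were not taken to pair arrays, as the labels do not state that same-numbered arrays belong together. Over 18193 genes the deviations of same-numbered arrays correlated at 0.45 between the Ik1ER groups and 0.27 between the MigR1 groups. Across lines the correlations were -0.07 to 0.10. The block used 1 replicate term for both lines, and a pairing within each line was not tested. With the block Ctbp2 also passed in the main comparison (adjusted p = 0.0429) and Hdac6 in the interaction (0.0461), and no other call of a member came or went.

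Of all genes, 971 were called in the main comparison, 399 with its own 4 arrays alone, 1572 with the covariate and 389 without both replicate 2 arrays of Ik1ER, and 441 to 832 with 1 array left out. The interaction called 230, with 444 under trend and robust moderation, 576 with the covariate, 90 without both replicate 2 arrays and 52 to 273 with 1 array left out. In 4OHT between lines 925 became 416 with these 4 arrays alone, 592 without both replicate 2 arrays and 237 to 805 with 1 array left out. Over both treatments 322 became 556 without dim genes, 701 under trend and robust moderation, 517 with the covariate, 57 without both replicate 2 arrays and 33 to 299 with 1 array left out. In MigR1 cells 0 became 1 with probe sets ending in _x_at set aside, and in ethanol between lines 0 became 1 with probe sets averaged per gene and 1 with the covariate. The cause was not tested.

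Differences near 0 turned sign. In the main comparison Mbd2 (-0.01) read 0.0012 after repeated quantile normalization and 0.0082 with the covariate, Mta2 (0.03) -0.0010 with the covariate and -0.0593 without both replicate 2 arrays, and Mbd3 (-0.01) 0.0026 with the covariate and 0.0376 without both replicate 2 arrays. With 1 array left out Chd4 ranged from -0.0295 to 0.33, Hdac2 from -0.0735 to 0.0031, Mta1 from -0.215 to 0.0129, Mta2 from -0.0778 to 0.13, Mbd2 from -0.04 to 0.0297 and Mbd3 from -0.0488 to 0.0376. In MigR1 cells Chd3 (-0.03) read 0.0111 with the covariate, and Mta3 (0.03) read -0.0575 with the mean over its probe sets and -0.14 to 0.19 with 1 array left out.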

Other observations

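Both brighter probe sets of Mta3 read higher on replicate 1 than on replicate 2 in all 4 groups, as 1955 of 18193 genes did (10.7%). On the probe sets that stand for the genes, Mta3 alone of the members did so. Among all 21 probe sets of the NuRD genes, 4 did so, these and 2 of Rbbp4, and the share over all probe sets was not computed. Chd3 and the dimmest probe sets of Hdac2 and Rbbp4 had the opposite order, with replicate 2 higher in all 4 groups. The share of all genes or probe sets with that order was not computed.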
